A study of Drosophila melanogaster with 3 samples.

Results

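The 10 genes described here act in the formation of embryonic muscle in Drosophila melanogaster. They are Mef2, kirre, sns, rols, mbc, sls, Tm1, Mhc, Act57B and how, listed by name out of 13968 protein-coding genes. The data are lists of genomic regions from chromatin immunoprecipitation followed by sequencing (ChIP-seq), in which DNA bound to a protein is pulled down and sequenced. The protein was Dip3, encoded by Dlip3, a factor with a DNA-binding MADF domain and a BESS domain. Per the labels it carried GFP at its C-terminus in a stable transgenic fly line, and an anti-GFP antibody pulled it down from whole embryos of mixed sex, aged 0 to 24 h. The promoter that drives the fusion protein is not given in the sources used here. There were 3 biological replicates of this 1 group, so no condition could be compared with another. Whole embryos were used, so the lists do not tell in which cells the tagged protein sat, and they hold no expression values against which the muscle content of a collection could be checked.

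A body wall muscle of the fly embryo begins as a founder myoblast that fuses with fusion-competent myoblasts. Mef2 is the transcription factor that drives differentiation of muscle in all myoblasts. The immunoglobulin-family receptors Kirre, on founder cells, and Sns, on fusion-competent cells, bind each other, and Rols and Mbc link that contact to the actin cytoskeleton. The fused cells then assemble sarcomeres from proteins such as Sls, Tm1, Mhc and Act57B, and the RNA-binding protein How controls splicing and stability of transcripts in muscle and tendon cells.

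Tagged Dip3 was listed at 7 of the 10 genes, with 20 of the 3741 regions of the reproducible set. This set was made by the irreproducible discovery rate (IDR), which scores how well a region keeps its rank between replicates, and is called the IDR set below. A region was counted for a gene when its summit, the position of highest signal, lay in the gene or within 2 kb of it. The regions fell to kirre (9), Mef2 (3), mbc (3), Tm1 (2), rols (1), sls (1) and how (1), while sns, Mhc and Act57B had none. The 3 replicate lists held 213, 214 and 192 regions in the same windows, out of 30000 in each list. Those lists were relaxed, so most of their regions are weak. With a q value cutoff of 0.01, replicate 1 held 2480 regions over the genome, replicate 2 held 3226 and replicate 3 held 8812. Sequencing depth is unknown, because the lists carry no read counts, and no interval that needs it is given.

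The sequence under 6 of the summits is shown here. These regions lie at starts of the muscle genes themselves or inside their introns, away from starts of other genes. Further regions at Mef2, kirre and mbc do so too and are not shown. Each printed sequence reaches 50 bp to either side of the summit and comes from the Release 6 genome (dm6), 5′ to 3′ on the strand of the gene. Capitals mark matches to the words described further below, which are the E-box CANNTG, the Tinman word TNAAGTG, the TATA word TATAAA and the consensus of the Mef2 site.
sls, chr3L:2115819-2115919, minus strand, upstream of the single start group: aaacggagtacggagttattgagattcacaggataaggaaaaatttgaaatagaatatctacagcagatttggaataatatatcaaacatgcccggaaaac
Tm1, chr3R:15287873-15287973, plus strand, upstream of the start of Tm1-RC and Tm1-RI: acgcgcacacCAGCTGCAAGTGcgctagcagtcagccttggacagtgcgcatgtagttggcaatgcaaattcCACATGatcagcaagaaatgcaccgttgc
Tm1, chr3R:15281187-15281287, plus strand, upstream of the start of Tm1-RG: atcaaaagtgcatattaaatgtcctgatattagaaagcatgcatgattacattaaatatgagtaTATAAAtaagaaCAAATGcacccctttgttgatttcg
rols, chr3L:12056874-12056974, minus strand, upstream of the downstream start: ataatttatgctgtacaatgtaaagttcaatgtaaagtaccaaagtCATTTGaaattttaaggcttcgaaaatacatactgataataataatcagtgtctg
how, chr3R:22049289-22049389, plus strand, intron: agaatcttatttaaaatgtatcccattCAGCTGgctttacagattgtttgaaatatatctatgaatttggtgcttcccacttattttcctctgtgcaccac
kirre, chrX:2787409-2787509, plus strand, intron: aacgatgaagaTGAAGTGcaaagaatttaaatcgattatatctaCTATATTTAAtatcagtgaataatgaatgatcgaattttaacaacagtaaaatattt

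The sls window holds none of the words, and the Tm1 window at Tm1-RC holds 3 E-boxes, of which a pair stands side by side. The kirre window, chosen after the matches were seen, holds the Mef2 site match and a Tinman match. The other kirre intronic windows away from starts of other genes hold none of the words, also the one with the higher signal of 289.7.

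The authors gave each region a signal value, used here to rank regions within a list. Over the 20 regions of the muscle genes the signal was 90.5 to 1246, with a median of 166, and over all 3741 IDR regions it was 85.1 to 2759.5, with a median of 141. The muscle gene regions thus ran from near the end of the list up to rank 20. The highest was near Mef2, and the next were at 418 (kirre), 409 (mbc), 375 (sls) and 346 (Tm1).

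**Figure D1:**
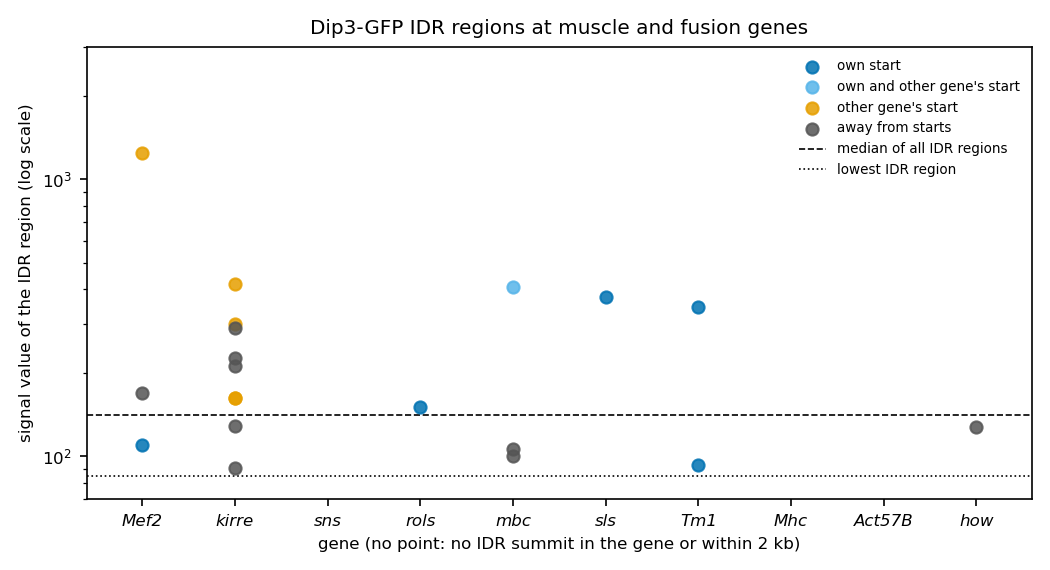
Signal value of each IDR region (log scale) at the 10 genes, ordered by role, each point a region and each colour its place. The region near Mef2 at 1246 stands highest and lies at a start of other genes, 7 genes have points, and the dashed line is the median of all IDR regions (141). At kirre, 2 regions at 162 overlap.

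Mef2, which encodes the myogenic MADS-box factor, lies on 2R (9913496 to 9958858, minus strand) and has 3 annotated start groups, a group being starts within 100 bp of one another. The strongest of its 3 regions (9959707 to 9960107) had a signal of 1246 and rank 20 of the IDR set. Its signal was 535, 383 and 326 in replicates 1, 2 and 3, where it ranked 17, 18 and 37. It was among the strongest regions of each list, but it lay −1048 bp from the nearest Mef2 start. It was much closer to starts of a pair of other genes, at −172 bp from Pal1, which encodes a peptide-processing lyase, and at −174 bp from Pdrg1. The region at the Mef2 start itself (9958686 to 9959075), −23 bp from the most upstream start of Mef2-RF and Mef2-RH, had a signal of 109 and rank 2671. It was listed with signals of 45.2, 19.3 and 46.3 and ranks of 2041, 5290 and 2596, so replicate 2 placed it lower than the other replicates did. The third region (9942783 to 9943172) lay in the 5′ UTR of Mef2-RG, 1786 bp downstream of that transcript's start, with a signal of 169. There the replicate ranks were 2685, 1426 and 950. The downstream start, which serves 8 of the 11 Mef2 transcripts, had no IDR region within 500 bp. A weak region there ranked 8277 in the pooled list, and only replicate 3 listed it, at rank 3969.

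The gene kirre, for the founder-cell receptor, is 394149 bp long (X, 2740384 to 3134532, plus strand) and carried 9 of the 20 regions. With kirre included, 10 protein-coding genes had at least as many IDR summits and 5 were at least as long. Per 100 kb of window kirre had 2.26 summits, against 2.79 over the 6 chromosome arms, so its count is near the genome's density for its length. None of its 5 start groups had an IDR summit within 500 bp. In place of them, 4 of the 9 summits lay at starts of other genes in or beside it. A pair lay at −329 and −179 bp from starts of Syx4, a SNARE gene on the opposite strand that overlaps the 5′ end of kirre, with signals of 299.9 and 418. A further one lay 148 bp inside CG3588 (signal 162), and one beyond the 3′ end lay at −133 bp from N, which encodes the receptor Notch (signal 162).

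The other 5 kirre summits were intronic, with no start of another protein-coding gene within 500 bp. A pair at 2786665 to 2786861 and 2787264 to 2787653 had signals of 289.7 and 225 and stood 45.5 and 46.2 kb from the nearest kirre exon. Replicates 1, 2 and 3 ranked the first of this pair 540, 434 and 786, and the second 799, 945 and 1060, so both were in the top list of every replicate. A replicate's top list here means its 3741 strongest regions, which matches the size of the IDR set. The summit nearest to a kirre start (3097015 to 3097404, signal 212) lay −2340 bp from the start of transcripts kirre-RC and kirre-RD and ranked 769, 1441 and 1143. The remaining regions, at 3085981 to 3086081 and 3025554 to 3025943, had signals of 128 and 90.5. The first of them ranked 2040 and 1241 in replicates 1 and 2 but 5924 in replicate 3, and the second ranked 3614, 3271 and 4029.

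The partner receptor gene sns (2R, 8798489 to 8856091) had no IDR region, and the nearest one to its single start lay 46.8 kb away. Its strongest pooled region was intronic and ranked 6855. At its start a region at +38 bp ranked 10849 in the pooled list, replicates 2 and 3 listed one at ranks 10651 and 13838, and replicate 1 listed none within 500 bp. None of these ranks is within the top lists. At their own starts neither kirre nor sns had an IDR summit, and their windows of 398 and 61.6 kb differ in size.

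Of the fusion genes behind the receptors, rols encodes an adaptor that binds Kirre in founder cells. It has 2 start groups 8385 bp apart (3L, minus strand), and its only IDR region (12056729 to 12057118, signal 151) lay −450 bp from the downstream one, used by 6 of its 9 transcripts. The region ranked 1237, 2250 and 2599, and its summit in the replicates lay −493, −325 and −567 bp from that start. The position therefore varied between replicates, to both sides of the 500 bp limit. The upstream start of rols-RB, rols-RG and rols-RI had no region within 500 bp in the pooled list or any replicate list. The transcripts of the marked start encode proteins of 1568 to 1670 residues, and those of the upstream start 1798 to 1900 residues.

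Mbc is the Rac activator of the fusing cell, a relative of vertebrate DOCK proteins. The strongest mbc region (3R, 23781466 to 23781660) had a signal of 409 and lay −190 bp from the single mbc start and +46 bp from the start of Nup98-96, a nucleoporin gene that runs the other way. Its signal was 168, 136 and 92.6 in replicates 1, 2 and 3, with ranks of 210, 207 and 669. The 2 genes share this region, and the summit is nearer to Nup98-96. A pair of weaker regions lay in mbc introns, 1510 and 2319 bp downstream of the start, with signals of 99.7 and 106. Replicates 1, 2 and 3 ranked the first of these 4267, 2765 and 1496 and the second 3624, 2945 and 2851. For the first, the overlapping replicate 1 region had its summit −289 bp from the IDR summit. With 3 summits in a window of 23.9 kb, mbc had 12.6 summits per 100 kb, the highest density among the 10 genes.

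Among the 4 sarcomere genes, sls and Tm1 were marked at a start that no other protein-coding gene shares. The gene sls, for a titin-like protein that links the Z-disc to the thick filaments, starts all 13 of its transcripts at 1 position (3L, minus strand). Its region (2115769 to 2115996) lay −258 bp from that position, with a signal of 375 and rank 327. In replicates 1, 2 and 3 the signal was 149.6, 110.5 and 116 and the rank was 280, 327 and 408. All replicates held it in the top list, and their summits lay within 13 bp of the IDR summit. The nearest start of another protein-coding gene, zormin, was 35.8 kb from the summit.

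Tm1 encodes tropomyosins from 6 start groups (3R, plus strand), of which 3 had an IDR summit within 500 bp. The stronger region (15287846 to 15288032, signal 346, rank 376) lay −89 bp from the start of Tm1-RC and Tm1-RI, inside introns of 13 longer transcripts. Its signal was 80.3, 74.4 and 190.2 in replicates 1, 2 and 3, and its rank was 895, 706 and 120. All replicates held it in the top list, and replicate 3 placed it highest. This start makes a protein of 441 residues. The start groups around it make 161 to 711 residues (the group with 10 transcripts), 678 residues (Tm1-RH) and 250 to 252 residues. The start of Tm1-RT makes 282 residues and that of Tm1-RG makes 285. The lists do not tell which of these starts serves sarcomeres, so the stronger region is not shown to mark a sarcomeric form. As background, the atypical tropomyosin Tm1-I/C, known from the female germline, links oskar mRNA to kinesin.

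The weaker Tm1 region (15281042 to 15281431, signal 92.8, rank 3330) lay −134 bp from the start of Tm1-RG and −295 bp from the next group, which holds 10 of the 18 transcripts. Its ranks were 3374, 3635 and 3932, near the end of the top lists, and beyond it in replicate 3. The replicate 1 region had its summit −249 bp from the IDR summit and covered 34.9% of the IDR region. The weaker Tm1 region therefore ranked low in all 3 replicates, unlike the one at Tm1-RC. The start of Tm1-RH had a region at −182 bp that ranked 4445 in the pooled list, outside the IDR set, with replicate ranks of 26249, 3441 and 2966. It was thus in 2 of the 3 top lists. The most upstream start, of Tm1-RT, had a region at pooled rank 5298 and in no top list.

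Mhc, the gene of the muscle myosin heavy chain, has 5 start groups within 2045 bp (2L, 16766566 to 16788766) and had no IDR region. Its strongest pooled region ranked 8195 with a signal of 46.8 and lay +51 bp from the start of Mhc-RQ, Mhc-RS, Mhc-RU and Mhc-RV. At the start that serves 14 of the 21 transcripts the pooled rank was 21367. The nearest IDR region to an Mhc start was 38.7 kb away. Act57B, an actin gene of embryonic and larval muscle, is 2.41 kb long (2R, 20944021 to 20946431). It also had no IDR region. Its strongest pooled region lay in the coding exon, 928 bp past the start, at rank 4913, and replicates 1, 2 and 3 ranked it 4170, 2582 and 20349. At the Act57B start only replicate 3 listed a region within 500 bp, at rank 19526. The nearest IDR region (20939824 to 20940213, signal 90.8) lay 4 kb upstream, beyond the 2 kb margin.

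The only how region (3R, 22049144 to 22049533, signal 128, rank 2150) was intronic, 7148 bp past the single start, and ranked 1756, 4468 and 1762. It was in the top lists of replicates 1 and 3. At the how start a region at −389 bp ranked 4822 in the pooled list. Replicate 1 ranked it 2512, while replicates 2 and 3 ranked it 13680 and 16794.

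**Figure D2:**
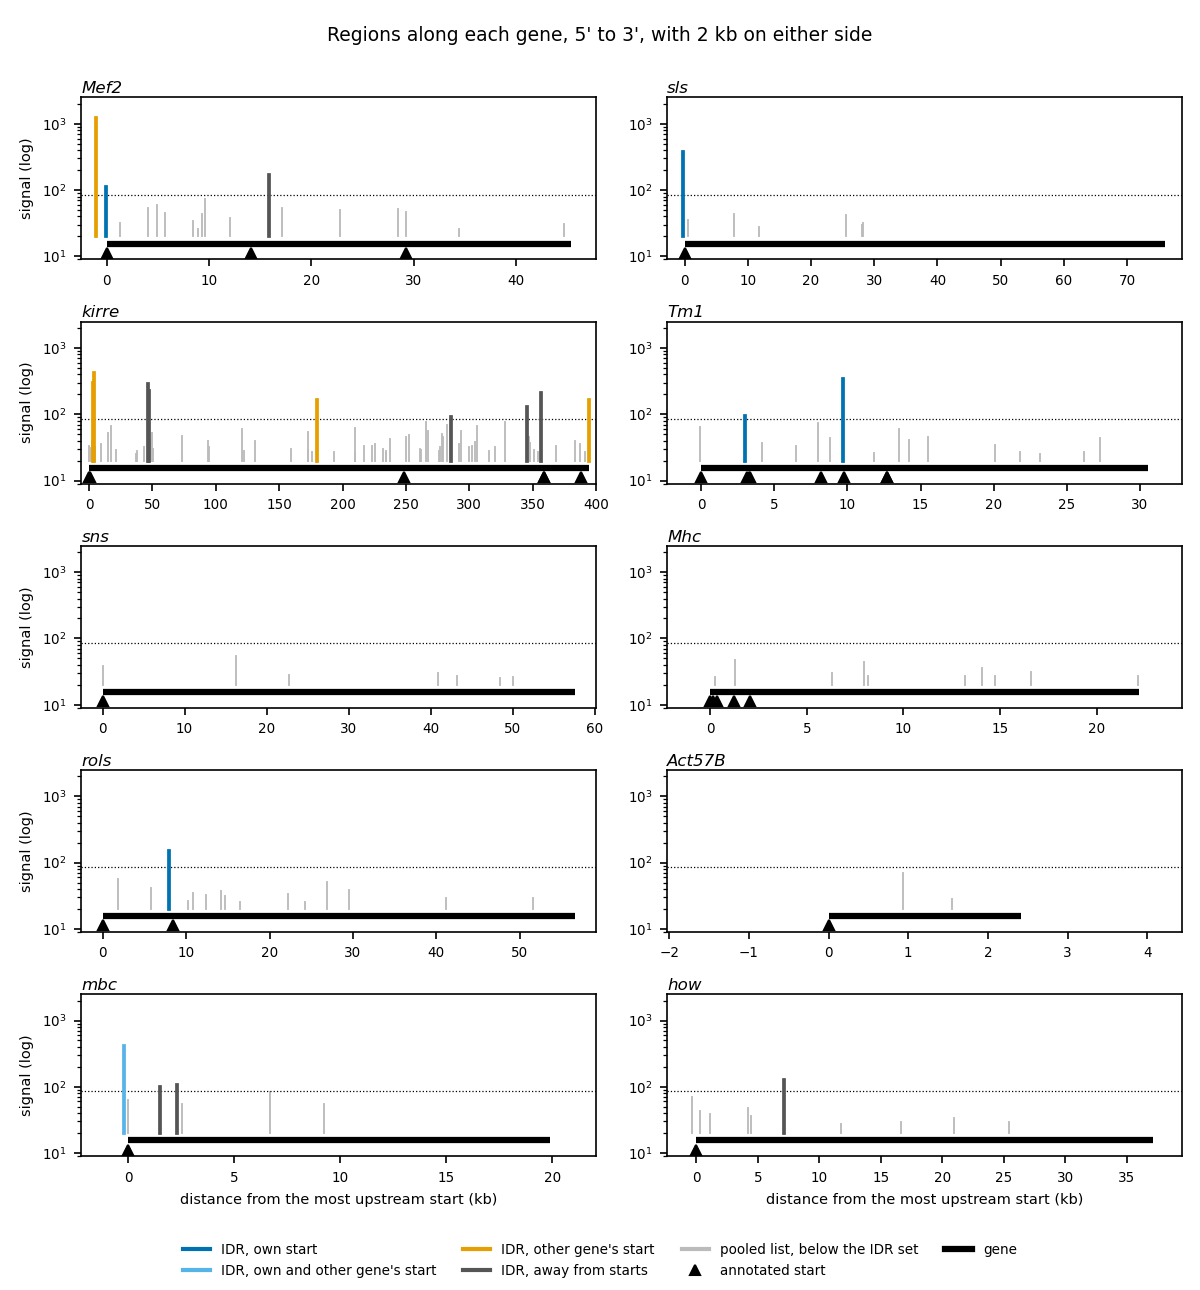
Each gene from 5′ to 3′ (x axis, kb from the most upstream start) with the signal of the regions in the pooled list (y axis, log scale). Thick bars are IDR regions coloured by place, thin grey bars pooled regions below the IDR set, triangles annotated starts, and the dotted line the lowest IDR signal (85.1). At kirre 9 bars reach above the line and none lies within 500 bp of a triangle, at rols and Tm1 downstream starts are marked, and at sns, Mhc and Act57B no bar reaches the line.

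By place, 5 of the 20 summits lay at the gene's own start alone (signal 92.8 to 375, median 151) and 1 at a start shared with another gene (409). Another 5 lay at a start of another gene only (162 to 1246, median 299.9), 8 were intronic (90.5 to 289.7, median 128) and 1 was in a 5′ UTR (169). The highest of these 3 medians belongs to the summits at starts of other genes, where the strongest region near Mef2 and the stronger kirre regions at Syx4 fell. A start of some protein-coding gene was within 500 bp for 11 of the 20 summits (55%), against 2147 of 3741 IDR summits (57.4%). In this respect the regions of the muscle genes were close to the IDR set as a whole.

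All 20 regions overlapped a listed region in every replicate. This was largely given, since each list holds 30000 relaxed regions and the IDR set was made from those lists. Of the 20, 13 (65%) overlapped the top list of all 3, against 2195 of the 3741 IDR regions (58.7%). The other 7 (35%) overlapped 2 top lists, against 27.9% of all IDR regions. By replicate, the top lists of replicates 1, 2 and 3 held 19, 17 and 17 of the 20, which is 95, 85 and 85%, against 81.5, 85.2 and 77.6% of all IDR regions. A replicate region with a q value of 0.01 or less was found for 15, 15 and 20 of the 20, and in all 3 replicates for 12 (60%), against 2145 of all IDR regions (57.3%). The regions short of that in some replicate include the Mef2 start, both mbc introns, the how intron and the weaker Tm1 region.

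**Figure D3:**
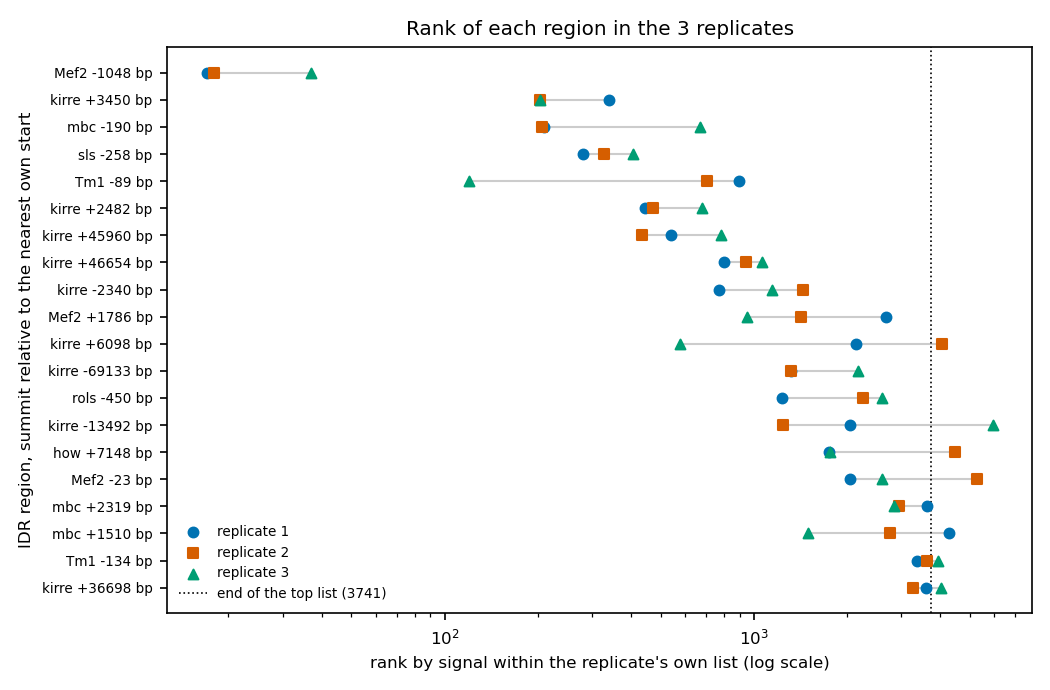
Rank by signal (x axis, log scale) of each of the 20 regions in the lists of replicates 1, 2 and 3, named by gene and distance of the summit from the nearest own start, in order of the IDR rank. The dotted line ends the top list at rank 3741. The region at Mef2 −1048 bp ranks 17, 18 and 37, 7 regions have 1 replicate beyond the line, and no region has 2.

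Below the IDR set the genes had more regions. Down to rank 5000 of the pooled list there were 8 further ones, at kirre (3), mbc, Tm1, Mef2, how and Act57B. The strongest was in an mbc intron, at rank 3845 with a signal of 83.2, just outside the set, whose lowest signal was 85.1, and the kirre intronic region at 90.5 was the lowest of the muscle genes inside it. Of the 8, 7 were in at least 1 top list, 1 was in 2 and 0 in all 3. No share over all pooled regions of these ranks stands beside these counts, so they only describe the genes.

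Set beside all genes, 7 of the 10 muscle genes (70%) had an IDR summit in the gene or within 2 kb, against 4749 of 13968 protein-coding genes (34%). Longer genes had more summits on average, from 0.3 per gene under 2 kb to 1.46 from 60 kb upward. The share over all genes was 24.2% under 2 kb, 39.6% from 2 to 10 kb, 50.3% from 10 to 30 kb, 51% from 30 to 60 kb and 54.5% from 60 kb upward. Of the 9 muscle genes of 10 kb or more 7 had a summit (77.8%), against 1012 of 1985 such genes (51%). In the length range of the 10 genes the share over all genes was 44.2%. Over all windows of the 10 genes together there were 2.56 summits per 100 kb, close to the 2.79 of the chromosome arms. The comparison with genes of like length thus leaves a smaller gap than that with all genes. With 10 genes, 5 of which were known to have a region at a start in these data when the genes were listed, the shares describe the genes and test nothing.

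At least 2 summits were found at 4 of the 10 genes (Mef2, kirre, mbc and Tm1), against 10.2% of all protein-coding genes. For genes of 10 kb or more this was 4 of 9, against 26.1%. A summit with no start of another protein-coding gene within 500 bp was found at 7 of the 10, against 15.3%, and at 7 of the 9 longer ones, against 40.4%. The strong regions at starts of Pal1 and Syx4 therefore did not decide which muscle genes were counted. At a start, within 500 bp, 5 of the 10 genes had a summit (Mef2, rols, mbc, sls and Tm1), against 20.3%. At a start that no other protein-coding gene shares, 4 of the 10 had one (Mef2, rols, sls and Tm1), against 8.23%. Since 5 of the 10 genes were known to have a region at a start when listed, these start shares in part return that choice. They were also not matched for gene length.

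**Figure D4:**
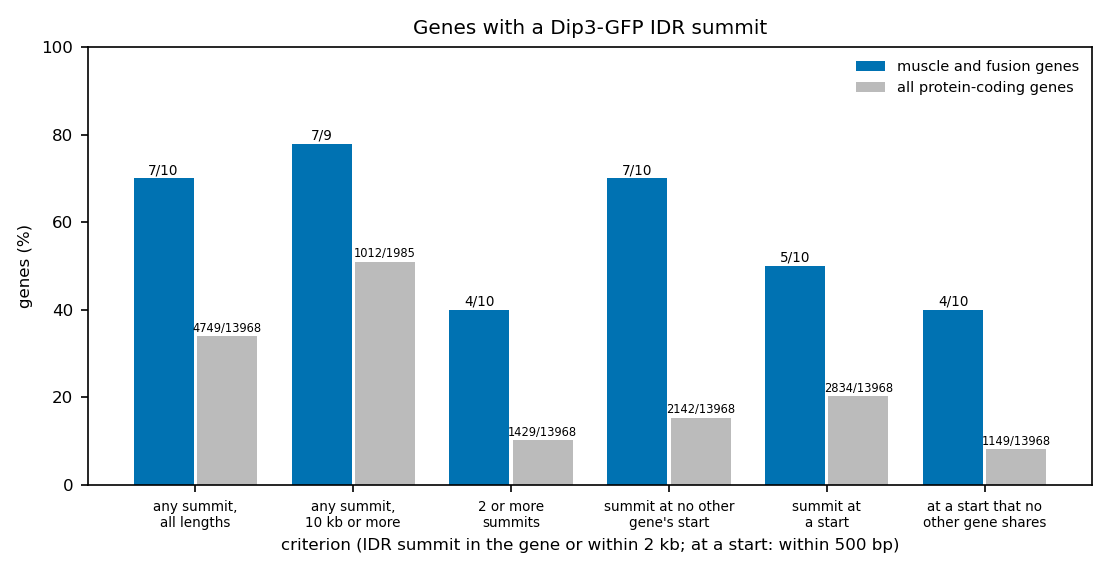
Share of genes (y axis, %) with an IDR summit under 6 criteria, for the muscle and fusion genes (blue, left of each pair) and all protein-coding genes (grey, right), with counts above the bars. The blue bars stand between 40 and 77.8%, each above its grey bar, and the gap is smaller among genes of 10 kb or more (77.8 and 51%). Some of the muscle genes were known to have a region at a start when listed, so the bars describe them and test nothing.

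The 10 genes have 29 annotated start positions in 26 start groups, and 7 of these groups (26.9%) had an IDR summit within 500 bp, against 3456 of 18945 groups of all protein-coding genes (18.2%). Among genes with 2 or more groups, 5 of 21 groups of the muscle genes were marked, against 20.9% of all such groups, so per start the muscle genes were near the background. Of the 5 muscle genes with alternative starts, Mef2, rols and Tm1 had a marked one. The most upstream group was marked in 1 of these 3 (Mef2), against 845 of 1104 such genes over the genome (76.5%). For rols and Tm1 the marked starts were internal. Exactly 1 group was marked in 2 of the 3 (Mef2 and rols), against 559 of the 1104 (50.6%).

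The other muscle genes give the wider setting. From lists of 81 further genes, 28 (34.6%) had an IDR summit in the gene or within 2 kb, close to the 34% of all protein-coding genes. Of the 31 that are 10 kb or longer 13 had one (41.9%), against 51% of all protein-coding genes of that length. Summits within 500 bp of a start were found at 12 of the 81 (14.8%), against 20.3% of all protein-coding genes. At a start shared with no other protein-coding gene 6 had one (7.41%), against 8.23%. The further muscle genes were thus near or below the shares over all genes.

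Among 20 further genes of myoblast fusion 9 had a summit (45%, against 34% of all protein-coding genes), led by signal by Pak3 (a kinase of actin remodelling, 351), Hem (a WAVE complex subunit, 273), Vrp1 (the WASp-interacting protein, 190.4) and HSPC300 (a WAVE complex subunit, 153). At Hem, Vrp1 and HSPC300 the summit lay at a start shared with a neighbouring gene, as at mbc. At Pak3 the strongest one lay at starts of Ttc1 and CG14882. Weaker Pak3 summits (signals 232 and 196) were intronic, with no start of another protein-coding gene within 500 bp. Summits within 500 bp of a start were found at 7 of the 20 fusion genes (35%), against 20.3%. At a start shared with no other protein-coding gene 2 had one (10%), against 8.23%. Among 16 further myogenic transcription factor genes 3 had a summit in the gene or within 2 kb (18.8%, against 34%). They were org-1 (rank 1120 of the IDR set), zfh1 (rank 1561) and tin (rank 2826). The genes twi and nau, a mesoderm determinant and the fly MyoD relative, had none. Of 26 further sarcomere genes 6 had a summit (23.1%, against 34%) and 0 had one within 500 bp of a start, against 20.3%. They include tmod (an actin-capping protein, signal 290.2), Actn (alpha-actinin, rank 1045), Obsc (the obscurin relative, 148) and TpnC47D (a troponin C, 113). The Actn summit lay at starts of usp and CG4313, and the stronger Obsc summit outside the gene at a start of CG3860. A weaker Obsc summit (signal 130) lay in a coding exon, with no start of another protein-coding gene within 500 bp. The tmod summits were intronic. The TpnC47D summit lay −532 bp from its start, just beyond the 500 bp limit, with no start of another protein-coding gene within 500 bp.

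Among 16 further genes of muscle attachment 8 had a summit (50%, against 34% of all protein-coding genes). Of the 8 that are 10 kb or longer 4 had one, against 51% of all protein-coding genes of that length. The highest signals were at stck (341), the integrin genes if (296) and mew (274), and sr (232), the tendon cell transcription factor. The strongest region at if lay at a start of goe, and those at mew and sr were intronic, as at how. Of 3 further muscle RNA-binding genes mbl (the muscleblind splicing factor, signal 373) and Rbfox1 (signal 134) had one. They are 163 and 113 kb long, and 54.5% of all protein-coding genes of 60 kb or more had a summit.

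The windows of 50 bp to either side of the 20 summits were searched on both strands for the words of muscle and promoter factors. An E-box, CANNTG, the core of sites for bHLH factors, was found in 8 of 20 windows (40%), against 38% of the 3741 IDR windows. The Mef2 site consensus was found in 1 (5%), the kirre window printed above, against 5.61%. The Tinman word TNAAGTG was found in 2 (10%), both at kirre, against 7.65%, and the TATA word TATAAA in 4 (20%), against 17.4%. The words of muscle factors were thus about as frequent at the muscle genes as in the IDR set.

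The E-box of Twist, CATATG, which is also counted as an E-box, was in 0 windows, against 3.9% of all IDR windows. The Zelda word CAGGTAG was also in 0, against 0.615%, as were the DRE TATCGATA (2.89%), the GAGA word GAGAG (9.97%) and the CTCF core AGGNGGC (3.39%). The BEAF-32 core CGATA, part of the DRE, was in 1 (5%), at the Mef2 start, against 20.4%. With 20 windows a share of 5% is a single window. The windows at the muscle genes had a median GC content of 30.2% (22.8 to 57.4%), against 35.6% (11.9 to 72.3%) over all IDR windows.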

How the data were processed

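ChIP-seq peak lists on dm6 of 3 replicates, their pooled list and the IDR set were used; dm3 lists, signal tracks and the control sample were not analysed here. Per the labels, chromatin was sonicated to 200 to 800 bp. Per the file headers, the authors called regions on each replicate and on pooled alignments with 1 further shared file, and made the IDR set from those lists. On dm6 it holds the 3741 strongest of 23524 pooled regions. The aligner, peak caller and IDR threshold were not given in the sources used here. The deposited signal value is the authors' own, on a scale that differs between lists, and was used only within a list. The deposited −log10 q value reaches a maximum of 3.38 to 3.87 in each replicate list.

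The 10 genes and the other gene lists were chosen with earlier results of these data known. A summit is column 2 plus column 10 of a list, and positions are counted from 1. Genes and starts came from Ensembl release 115 on BDGP6 patch 54, transcript letters and sequence from RefSeq Release 6. A start-proximal summit lies within 500 bp of a start. A region counts as found in another list from 1 bp of overlap. Other muscle genes were named as up to 4 per list with the highest signal, and other genes where a start lay within 500 bp of a summit. All 91 listed symbols matched, 2 by synonym (Arf51F as Arf6, Unc-89 as Obsc). No test was run, because there was 1 group, so values stand beside the same over all genes or IDR regions. Counting and motif search were tested on simulated data. Python 3.11.15 and matplotlib 3.10.9 were used. The alternatives were other margins, windows, peak sets, overlap criteria and motif windows, and top-list overlap with each replicate left out.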

Additional observations from a re-analysis of the deposited data

How the results depend on the processing

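On recomputing, 46 values stayed within 1.5 times the reported count or the interval of the share and 13 did not. With a start window of 200 bp, 3 genes and 4 start groups were marked, in place of 5 and 7. The rols and sls starts and the Tm1 group of 10 transcripts, at −295 bp, dropped out. Keeping the upper 50% of IDR regions by signal (1870 of 3741) left 13 of the 20 summits and 4 start groups. Keeping the 2195 that overlap all 3 top lists left the same counts. A reciprocal overlap of 50% with all 3, met by 1629 of the 3741, left 4 genes, 11 of the 20 summits, 2 genes marked at a start and 2 start groups. There sls, Tm1 and how dropped out. The replicate 3 region at sls covered 44.3% of the IDR region, the stronger Tm1 region covered 49.2% of that of replicate 1, and how was not in the top list of replicate 2. The IDR set was not made anew without a replicate. For each replicate left out, IDR regions that overlap the top lists of both others were kept, 2382 to 2733 of the 3741. This left 6 to 7 genes, 14 to 16 of the 20 summits, 4 to 5 genes marked at a start and 4 to 6 start groups. Without replicate 1 or 3, how and the Mef2 start dropped out, since replicate 2 placed them beyond its top list. In windows of 51 bp the E-box share was 15% and that of the BEAF-32 core 0%. A margin of 5 kb gave 8 genes, adding Act57B, with 23 summits, and the gene body alone 6 genes with 15 summits. No paired analysis was possible because there was 1 group. Unknown depth limits all lists: a missing region is one not listed, not an absence of Dip3.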
